A study of Mus musculus with 8 samples.

Results

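The miR-144 and miR-451a cluster and miR-486a are followed here as 4 mature microRNAs (miRNAs) on a mouse array: mmu-miR-144-3p, mmu-miR-144-5p, mmu-miR-451a and mmu-miR-486a-5p, named below without the mouse prefix. They were taken by name from the 1881 mouse miRNAs that the array names, and all 4 have probes. Plasma came from female NMRI mice, an outbred stock, aged 3 months. One group (IMB) received imatinib, a tyrosine kinase inhibitor, by mouth at 100 mg/kg for 9 daily doses. Another (DOX) received doxorubicin, an anthracycline that damages DNA, by tail vein in 4 doses of 3 mg/kg, and controls (CTRL) were given the solvents alone. Each of the 8 one-colour arrays held RNA from 300 µl of plasma pooled over 3 mice, which left 3 IMB, 3 DOX and 2 CTRL pools, so no value belongs to a single animal. The study compares the plasma miRNA changes of imatinib with those of doxorubicin.

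miR-144 and miR-451a are made from 1 primary transcript that erythroid transcription factors switch on as red cell precursors mature. miR-451a is the textbook case of a miRNA made without Dicer: its hairpin is too short for that enzyme and is cut by Argonaute instead. miR-486a lies in the ankyrin gene Ank1, and it is known from red cells and from heart and skeletal muscle. Mature red cells have no nucleus yet keep these miRNAs, and plasma levels of miR-451a are widely used as a sign of red cell RNA in a plasma sample.

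The sequences below show which strands the probes read and how the hairpins are laid out. Mature sequences were found in RefSeq (GRCm38.p6) for 3 of the 4 members, and miR-486a-5p is given by name. In each mature sequence the capitals mark the seed, bases 2 to 8, which pairs with targets.
miR-144-3p: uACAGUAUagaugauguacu
miR-144-5p: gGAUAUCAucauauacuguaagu
miR-451a: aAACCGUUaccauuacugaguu
None of the 1679 mature mouse miRNAs in that table shares a seed with any of these 3, and the 3 seeds differ from each other. The nearest relative of the miR-144-3p seed considered here, miR-101a-3p, has 7 of the first 8 bases in common and differs by U8C (counted from the 5′ end, miR-144-3p first).

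The hairpins are shown with their mature products in capitals, because the arms differ in what plasma held.
Mir144: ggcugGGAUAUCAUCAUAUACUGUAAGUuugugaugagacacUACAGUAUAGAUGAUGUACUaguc
Mir451a: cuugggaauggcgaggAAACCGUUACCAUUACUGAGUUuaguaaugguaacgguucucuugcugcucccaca
Mir144 lies at chr11:78073005-78073070 and Mir451a at chr11:78073170-78073241, both on the plus strand of GRCm38.p6, with 99 bases between them. In the RefSeq annotation both lie between the genes Flot2 and Eral1 and inside neither. Mir451b is annotated on the minus strand over the same bases as Mir451a, and its hairpin is the exact reverse complement. In the fold that RNAfold predicted, the 22 bases of miR-451a reached into the terminal loop and covered all 4 loop bases, whereas neither miR-144 arm had a base in its loop of 6. Mir486 lies inside Ank1 on chromosome 8, where the annotation also places Mir3107. The array names no probe for miR-486b-5p, and whether the miR-486a-5p probes also read it was not tested.

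Plasma held 3 of the 4 members on every array, and miR-144-5p, the other arm of the miR-144 hairpin, on none. Detection of a probe required that the spots flagged well above background exceed 50% of those kept. For miR-144-3p, miR-451a and miR-486a-5p both probes passed with 100% of kept spots on all 8 arrays. For miR-144-5p the share was 0% for both probes on all 8 arrays, and Agilent's own flag called it absent on all 8. Its brighter probe read 8.10 and 5.62 for CTRL, 6.93, 8.63 and 9.18 for IMB, and 2.34, 4.67 and 2.88 for DOX, in background-subtracted units. None of these readings is well above background, so no fold is given for miR-144-5p. Of the minus-strand product of the Mir451a locus, miR-451b, 0% of kept spots passed on any array.

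The second arm of the miR-486 hairpins sat at the edge of detection and was absent by Agilent's flag in doxorubicin plasma. That flag called miR-486a-3p and miR-486b-3p present on 2 of 2 CTRL arrays, 3 of 3 IMB arrays and 0 of 3 DOX arrays. By the stricter spot rule both were detected only in CTRL pool 1 and IMB pool 2. DOX arrays also detected fewer mouse miRNAs by that rule, 258 to 279 against 297 and 327 in CTRL (266 to 339 with IMB). The share of all miRNAs with the same pattern of Agilent's flag is not given. The brighter probe of miR-486a-3p read 28.4 and 16.3 in the CTRL pools, 19.2, 43.0 and 18.1 with imatinib, and 11.9, 8.99 and 6.61 with doxorubicin, without scaling. The 75th percentile used for scaling was also lower with DOX than in controls, its part in these readings was not tested, and no fold is given.

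**Figure D1:**
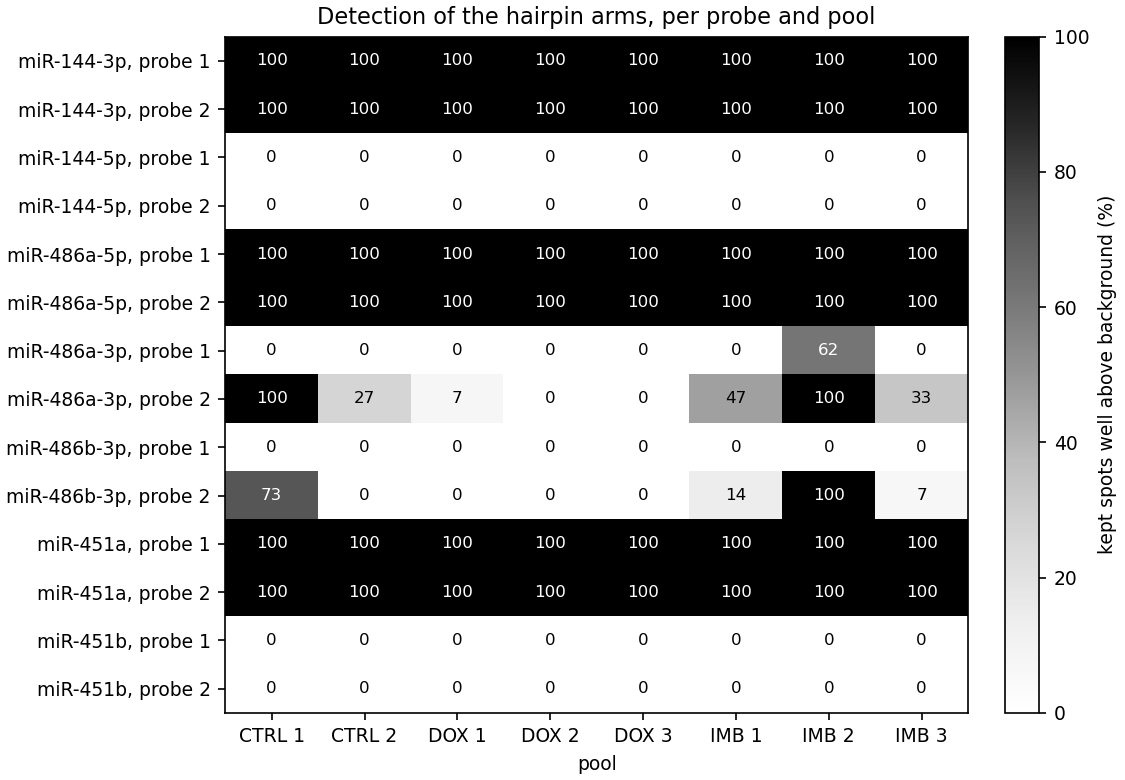
Percentage of kept spots well above background for each probe (rows) in each pool (columns); darker cells are higher and the number in a cell is the percentage. All probes of miR-144-3p, miR-451a and miR-486a-5p stand at 100 in all 8 pools, both probes of miR-144-5p and miR-451b at 0, and miR-486a-3p and miR-486b-3p pass in part of the CTRL and IMB pools.

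Across the arrays, 258 to 279 mouse miRNAs were detected with DOX, 266 to 339 with IMB and 297 and 327 in CTRL, and no spot was saturated. The 75th percentile of signal over the probes detected on all arrays was 213 to 267 with DOX, 196 to 425 with IMB, and 300 and 349 in CTRL. Values below are log2 signals after each array was scaled to that percentile, with a floor at 4.40, unless stated otherwise. Markers of other origins were also read. All 6 white cell markers, all 4 of liver and all 4 of endothelium and platelets were detected on at least 1 array. Of 7 muscle markers, 4 were detected on none by the spot rule. Differences were tested with limma over 294 miRNAs, and p-values were adjusted over all of them (Benjamini-Hochberg).

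miR-144-3p was highest after imatinib, intermediate in controls and lowest after doxorubicin, and no pool broke that order. It read 7.86, 7.78 and 7.82 with imatinib, 7.12 and 6.89 in controls, and 6.66, 6.57 and 6.64 with doxorubicin. The 3 groups do not overlap anywhere, and the pools within a group lie close together. The group values were 7.82 ± 0.04 (SD, n = 3) for IMB, 7.01 ± 0.16 (SD, n = 2) for CTRL and 6.62 ± 0.05 (SD, n = 3) for DOX. Before scaling the same order held, with signals of 161, 330 and 256 for IMB, 147 and 146 for CTRL, and 75.9, 83.3 and 93.8 for DOX. IMB pool 1 stood only slightly above the controls there, and it was also the dimmest array, with the 75th percentile at 196.

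miR-451a followed the same order of group means with more spread. It read 15.13, 15.15 and 14.82 with imatinib, 15.04 and 14.29 in controls, and 14.56, 14.05 and 13.96 with doxorubicin. The control pools lie far apart: CTRL pool 1 is as high as the imatinib pools and CTRL pool 2 lies among the doxorubicin pools. Imatinib and doxorubicin pools do not overlap. Means were 15.03 ± 0.18 (SD, n = 3) for IMB, 14.66 ± 0.53 (SD, n = 2) for CTRL and 14.19 ± 0.32 (SD, n = 3) for DOX.

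miR-486a-5p had the same order of group means, again with wide groups. It read 10.60, 10.52 and 9.86 with imatinib, 10.37 and 9.58 in controls, and 9.97, 9.26 and 8.87 with doxorubicin. DOX pool 1 is above IMB pool 3, so all groups overlap with their neighbours. Means were 10.33 ± 0.40 (SD, n = 3) for IMB, 9.97 ± 0.56 (SD, n = 2) for CTRL and 9.37 ± 0.56 (SD, n = 3) for DOX.

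**Figure D2:**
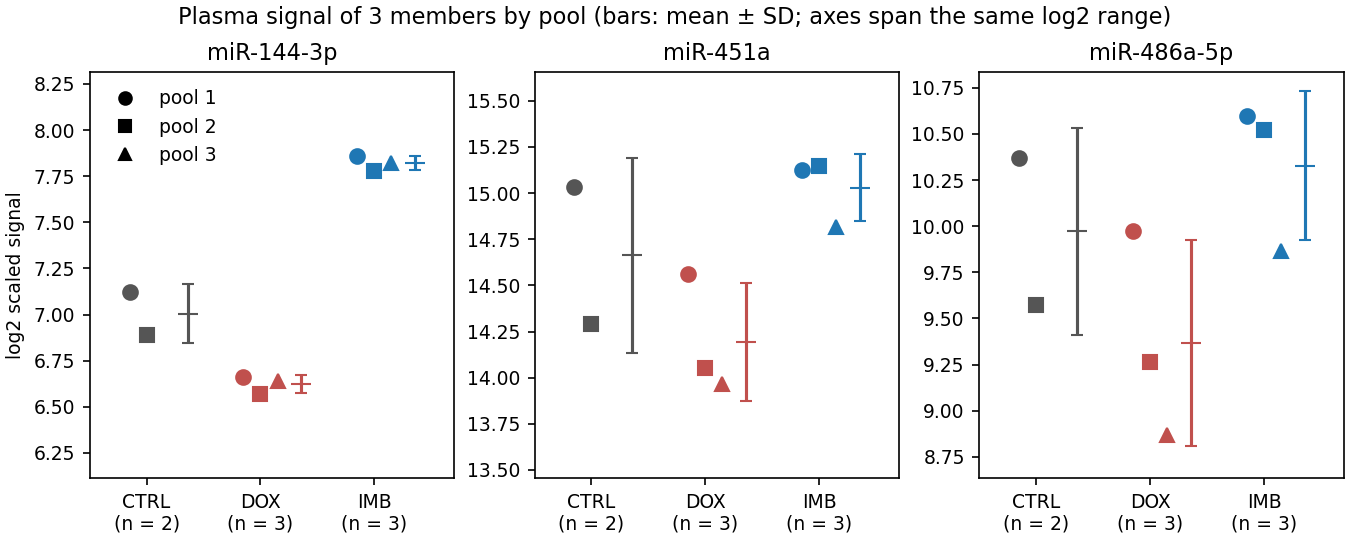
Log2 scaled signal (vertical axis) of miR-144-3p, miR-451a and miR-486a-5p in each plasma pool, by group (horizontal axis; symbols mark the pool number, bars the mean ± SD). The 3 axes span the same log2 range, so the narrow groups of miR-144-3p (SD 0.04 to 0.16) can be set against the wide groups of miR-486a-5p (SD 0.40 to 0.56).

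After imatinib, miR-144-3p was the only member that rose past the threshold against the controls, by 0.82 on the log2 scale (1.76-fold; SE 0.07; limma adjusted p = 0.0077), and it had the smallest p of all miRNAs tested. Of 294 miRNAs, 1.02% passed in this comparison in either direction. miR-451a differed by 0.37 (95% CI -0.35 to 1.08; limma adjusted p = 0.81). miR-486a-5p differed by 0.36 (95% CI -0.72 to 1.43; limma adjusted p = 0.92). Of the 3 members tested, 1 had groups that did not overlap, higher with imatinib, against 10.9% of all miRNAs in that direction and 17.7% in either. The call of miR-144-3p ended under 10 of 18 other settings, where its difference ran from 0.61 to 1.02, and without IMB pool 2 (adjusted p = 0.051) or IMB pool 3 (adjusted p = 0.055). Its imatinib pools were above both control pools in all 13 sets of values compared. These sets reprocess the same arrays and are not independent. The median over its 2 probes and the lower floor could not move its values.

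After doxorubicin, 0 of the 3 tested members passed in limma against the controls, and all 3 differences were negative. miR-144-3p differed by -0.38 (SE 0.07; 95% CI -0.56 to -0.20), with the third smallest limma p of all miRNAs (unadjusted p = 0.0023, adjusted p = 0.20). All 3 DOX pools lay below both controls, as did those of 9.86% of all miRNAs, while 28.6% did not overlap in either direction. This held in 12 of the same 13 sets of values, which are not independent. With normexp background correction the groups overlapped and the difference was -0.17. miR-451a differed by -0.47 (95% CI -1.18 to 0.25; limma adjusted p = 0.78). miR-486a-5p differed by -0.60 (95% CI -1.68 to 0.48; limma adjusted p = 0.85). In this comparison 0.34% of the miRNAs passed in either direction, and 8.5% had an unadjusted p under 0.05. Without CTRL pool 2 miR-144-3p passed (-0.50, limma adjusted p = 0.045). Without CTRL pool 1 the difference was -0.096 for miR-451a and -0.21 for miR-486a-5p, and without CTRL pool 2 it was -0.84 and -0.999.

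Set directly against doxorubicin, imatinib pools held 2.30 times as much miR-144-3p (1.20 on the log2 scale; SE 0.06; limma adjusted p = 0.00090), again with the smallest p of all miRNAs. miR-451a was 0.84 higher (95% CI 0.20 to 1.48; unadjusted p = 0.019; limma adjusted p = 0.32) and miR-486a-5p 0.96 higher (95% CI -0.01 to 1.92; limma adjusted p = 0.41), neither past the threshold. So 1 of 3 members passed, where 1.02% of all miRNAs did and 0.68% were higher. Groups did not overlap for 2 of 3 members, both higher with imatinib, against 6.8% of all miRNAs in that direction. The comparisons with the controls share the same 2 control pools. The difference in means between the drugs does not include them, but its standard error and p use the spread pooled over all 3 groups. With no scaling the call of miR-144-3p ended (1.51, limma adjusted p = 0.13), and miR-451a passed with normexp background correction (0.88, limma adjusted p = 0.045).

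**Figure D3:**
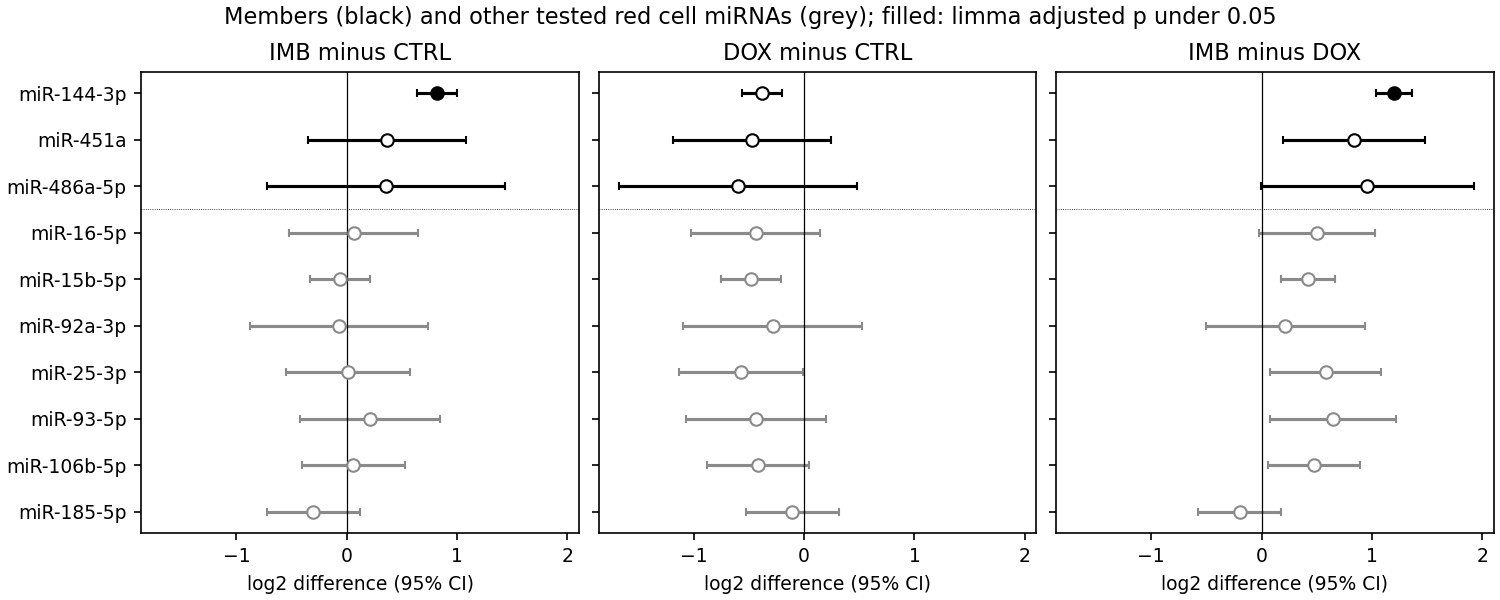
Log2 differences (horizontal axis, points) with 95% confidence intervals for the 3 tested members (black) and 7 other red cell miRNAs (grey) in the 3 comparisons; filled points have a limma adjusted p under 0.05. miR-144-3p has the shortest intervals and is the only filled point, at 0.82 for IMB minus CTRL and 1.20 for IMB minus DOX, while miR-486a-5p has intervals that span 0 in all 3 panels.

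The members were alike in the direction of their differences and unlike in spread. Between the drugs the 3 members differed by 0.84 to 1.20, yet the standard error was 0.06 for miR-144-3p, 0.26 for miR-451a and 0.39 for miR-486a-5p. Whether the spreads themselves differ was not tested. Each member has 2 probes, and the pair gave close values for each. For miR-144-3p the 2 probes gave 0.83 and 0.80 for IMB minus CTRL, -0.37 and -0.40 for DOX minus CTRL, and 1.19 and 1.20 for IMB minus DOX. For miR-451a they gave 0.84 and 0.84 between the drugs, and for miR-486a-5p 0.96 and 0.95. Replicate spots of a probe within an array varied by 2.63% to 9.45% (coefficient of variation) for miR-144-3p, 1.66% to 4.67% for miR-451a and 3.86% to 7.24% for miR-486a-5p. Spot error is noise within an array and says nothing of the spread between pools.

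miR-451a and miR-486a-5p, which come from different chromosomes, varied together from pool to pool. Over the 8 arrays Pearson's r was 0.97 (exact permutation p = 0.00020) and Spearman's rho was 0.95 (exact permutation p = 0.0011). Without the 2 arrays farthest from the median of miR-451a, both doxorubicin arrays, r was 0.93. For deviations from the group means r was 0.95, given as a description. All points share the array's scaling and the group structure. The permutation moved arrays freely across the groups, so its p also reflects differences between groups. Only this pair, the most correlated of the members, was tested. miR-144-3p shares a transcript with miR-451a, and its imatinib pools stand apart from the other 5, so no pooled correlation is tested for it. Deviations of miR-144-3p from its group means had an r of 0.74 with those of miR-451a and 0.54 with those of miR-486a-5p, again over 8 arrays and as a description.

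**Figure D4:**
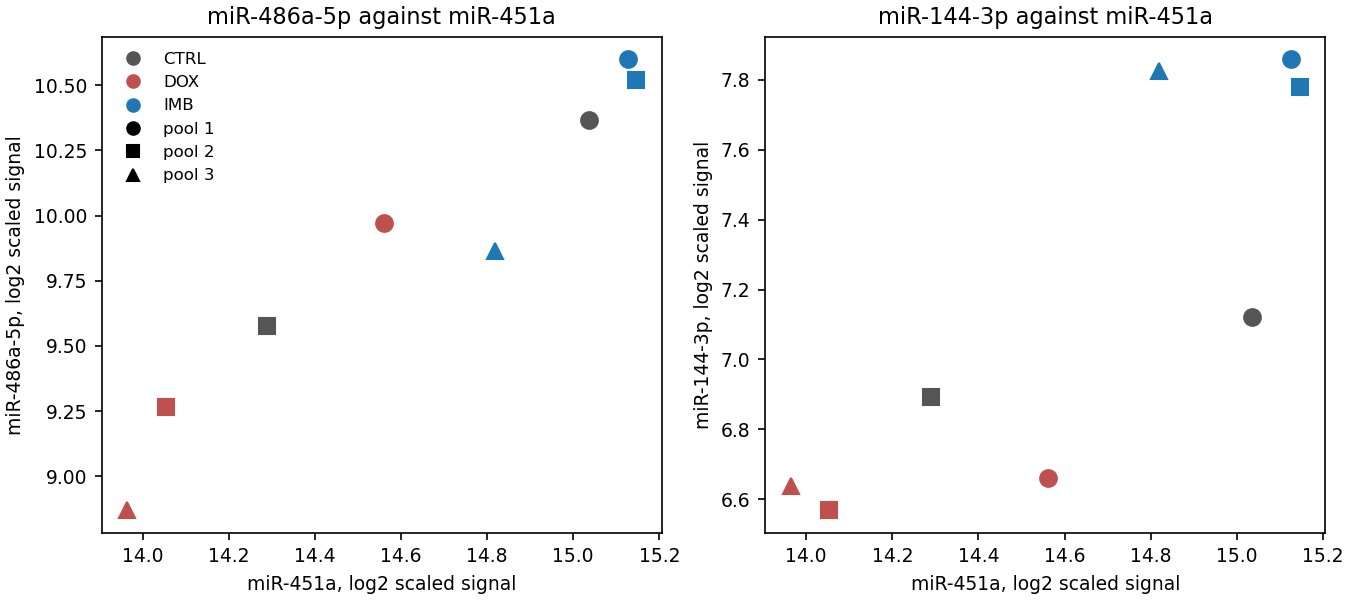
Left, miR-486a-5p against miR-451a; right, miR-144-3p against miR-451a; both axes are log2 scaled signals and each of the 8 points is a pool (colour, group; symbol, pool number). On the left the pools fall along a line (r = 0.97), and on the right the 3 imatinib pools lie at 7.78 to 7.86, above the other 5 pools.

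Ratios within an array compare how far 2 members moved, with array scaling cancelled, and only their differences between groups are read. The log2 ratio of miR-144-3p to miR-451a was -7.27, -7.37 and -6.99 with IMB, -7.91 and -7.40 in CTRL, and -7.90, -7.49 and -7.33 with DOX. Each imatinib pool lay above both controls, with a mean difference of 0.45 (2-sided exact permutation p = 0.1, the lowest possible for 3 and 2 pools). Leaving out CTRL pool 1 made it 0.19, and leaving out CTRL pool 2 made it 0.71. Doxorubicin and control ratios differed by 0.09 (exact permutation p = 0.7) and the drugs by 0.36 (exact permutation p = 0.2). With normexp background correction the difference between the drugs became -0.10. None of the 9 ratio comparisons could pass, because the exact permutation p cannot go below 0.1 for 3 against 3 pools either. Adjusted over the 9, the lowest exact permutation p was 0.9. For miR-144-3p over miR-486a-5p the differences were 0.46 for IMB minus CTRL, 0.22 for DOX minus CTRL and 0.24 for IMB minus DOX (exact permutation p = 0.6, 0.8 and 0.6). The first of these became 0.18 when CTRL pool 1 was left out and 0.74 when CTRL pool 2 was. The last became -0.13 with normexp background correction. Ratios to the undetected miR-144-5p were not formed.

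The ratio of miR-486a-5p to miR-451a was -4.67 and -4.71 in controls. It was -4.53, -4.63 and -4.95 with IMB and -4.59, -4.79 and -5.09 with DOX, ranges that overlap each other and the controls. The difference was -0.01 for IMB minus CTRL, -0.13 for DOX minus CTRL and 0.12 for IMB minus DOX (exact permutation p = 1, 0.7 and 0.6). In both drug groups pool 3 had the lowest ratio.

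Other red cell miRNAs were taken from a list of 15, of which 14 are on the array and 7 could be tested. In no comparison did any of the 7 pass in limma. Between imatinib and controls 4 were higher and 3 lower, with a median of 0.01, equal to the median of 0.01 over all 294 miRNAs. Between doxorubicin and controls all 7 were lower, with a median of -0.44 against 0 over all miRNAs, and the groups of 3 did not overlap, all lower, against 9.86% of all miRNAs in that direction. Between the drugs 6 were higher with imatinib and 1 lower, with a median of 0.48 against 0, and the groups of 5 did not overlap, all higher, against 6.8% of all miRNAs in that direction. The 5 were miR-16-5p, miR-15b-5p, miR-25-3p, miR-93-5p and miR-106b-5p, and the 3 lower with doxorubicin are among them. All were read on the same arrays, and miR-25-3p, miR-93-5p and miR-106b-5p belong to the same cluster. These counts are therefore not of independent miRNAs. miR-93-5p, of the miR-106b cluster, differed by 0.65 between the drugs (SE 0.23, limma adjusted p = 0.36). miR-15b-5p, of the miR-15 and miR-16 family, was 9.06, 8.95 and 8.87 with imatinib and 8.50, 8.55 and 8.55 with doxorubicin (0.42, SE 0.10, limma adjusted p = 0.18). miR-185-5p went the other way, at -0.20 (SE 0.15, limma adjusted p = 0.73). Between imatinib and controls the highest of the 7, miR-93-5p, stood at 0.21, beside 0.82 for miR-144-3p.

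Markers of other sources moved in their own ways beside these results. Because miR-486 is also made in muscle, muscle markers were read next to it. Of 7 listed, 3 were tested and 0 passed, and miR-206-3p, miR-208a-3p, miR-208b-3p and miR-499-5p were detected on no array by the spot rule. Agilent's flag called miR-206-3p present in IMB pool 2. The summed scaled signal of the 7 was 56.3 to 65.3 in CTRL, 115 to 320 with DOX and 100.2 to 1124 with IMB. miR-133b-3p, above the floor in every pool, differed from controls by 2.16 (SE 0.95) after imatinib and 1.48 (SE 0.95) after doxorubicin. Both controls were at the floor for miR-1a-3p and miR-133a-3p, so no size is given for them. Muscle markers were thus lowest in controls, whereas miR-486a-5p was lowest with doxorubicin; their part in the miR-486a-5p values was not tested. Summed white cell markers were 1493 to 2292 with IMB, 2239 to 2417 with DOX and 2000 to 2534 in CTRL, and 0 of 6 passed in any comparison (median -0.31 for IMB minus CTRL and -0.23 for DOX minus CTRL). Markers of endothelium and platelets summed to 666 to 1155 with IMB, 1135 to 1277 with DOX and 876 to 932 in CTRL, and 0 of 4 passed (medians -0.20 and 0.22). Between the drugs all 4 were lower with imatinib, opposite to the members, with a median of -0.42, and miR-126a-5p differed by -0.69 (SE 0.13, limma adjusted p = 0.086). Liver markers summed to 1197 to 3215 with IMB, 1954 to 2665 with DOX and 1351 to 1623 in CTRL, and 0 of 4 passed (medians 0.20 and 0.34). The part of these sources in the members' values was not tested. Among the liver markers miR-101a-3p, the near match to the miR-144-3p seed, differed by -0.12 (SE 0.11) for IMB minus CTRL and -0.08 (SE 0.11) for DOX minus CTRL.

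The reference miRNAs miR-23a-3p and miR-24-3p, used in plasma work because red cells hold little of them, ran against the members. miR-23a-3p differed by -0.21 (SE 0.15) for IMB minus CTRL, 0.19 (SE 0.15) for DOX minus CTRL and -0.40 (SE 0.14) for IMB minus DOX, none past the threshold in limma. Scaling to the pair therefore widened the members' differences between the drugs to 1.58 for miR-144-3p, 1.22 for miR-451a and 1.34 for miR-486a-5p. That scaling moved the median of all miRNAs between the drugs to 0.30. In plasma, more red cells broken and more of a miRNA in each cell cannot be told apart.

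What can be read of miR-451a depends on the scaling. In the authors' deposited table miR-451a has the same value, 13.47, on all 8 arrays, where it is also the highest value of each array, so its difference is 0 in every comparison. Quantile normalization, which makes the highest values of all arrays equal by construction, likewise gave 0. How the authors made their table is not stated. The authors' deposited table gives miR-144-3p as 6.68, 6.62 and 6.66 for IMB, 6.01 and 5.72 for CTRL, and 5.58, 5.37 and 5.58 for DOX, in the order found above. It gives miR-486a-5p as 9.30, 9.21 and 8.75 for IMB, 9.21 and 8.56 for CTRL, and 7.82 to 8.82 for DOX. For miR-144-5p it lists the lowest value of the array on all 8 arrays. With no scaling the median of all miRNAs was -0.32 for DOX minus CTRL and 0.23 for IMB minus DOX, and miR-144-3p differed there by -0.81 and 1.51.

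**Figure D5:**
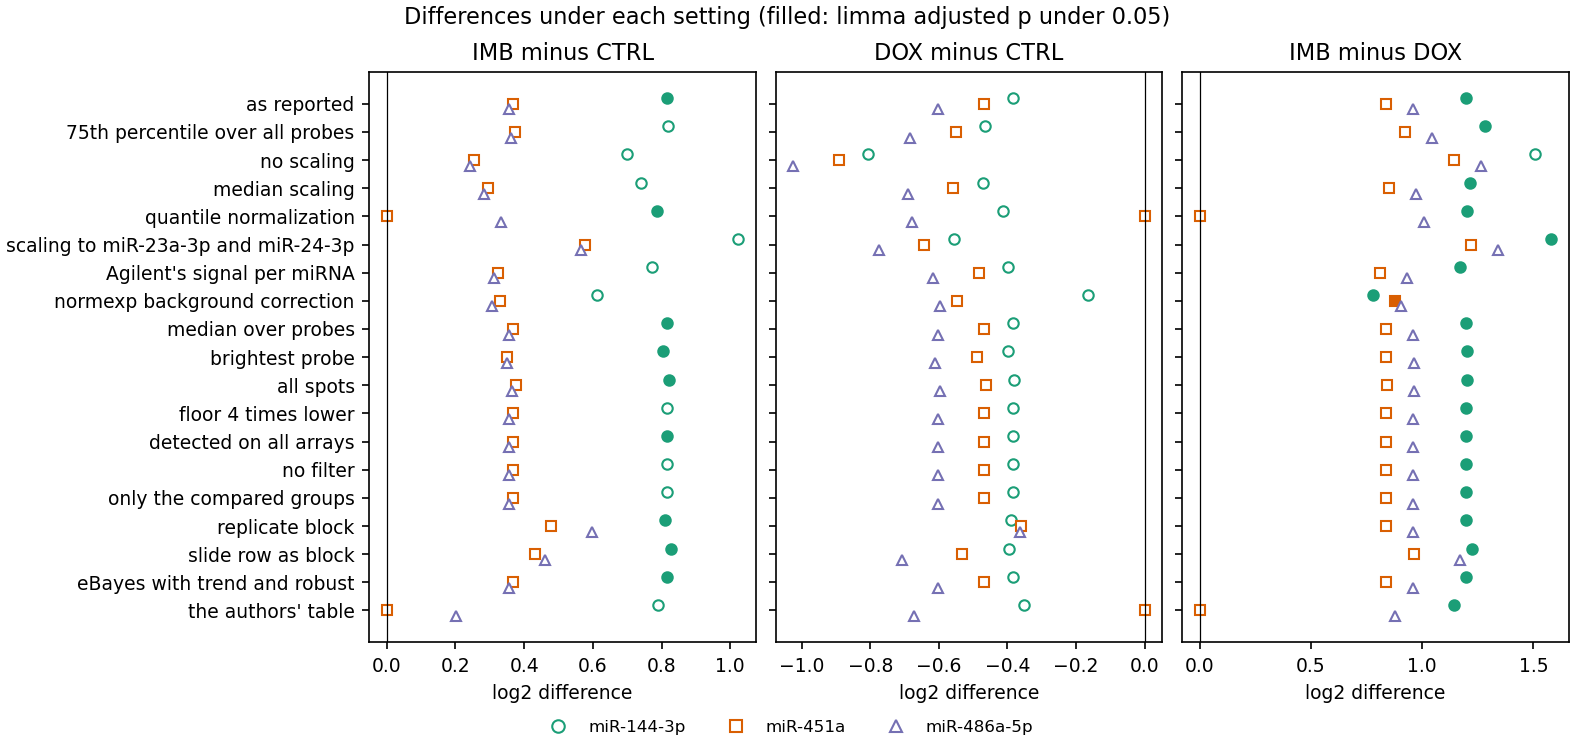
Log2 differences (horizontal axis) of the 3 tested members under each setting (rows); filled symbols have a limma adjusted p under 0.05. miR-144-3p lies between 0.61 and 1.02 after imatinib against controls and between 0.78 and 1.58 against doxorubicin, and miR-451a falls to 0 with quantile normalization and in the authors' table.

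The tested miRNAs whose pattern over the 8 arrays was most like each member were named by Pearson's r, as a description of these arrays. For miR-144-3p they were miR-202-3p (r = 0.94), miR-7044-5p (r = 0.92) and miR-15a-5p (r = 0.85). miR-202-3p also passed against controls (0.54, SE 0.05, limma adjusted p = 0.0077) and between the drugs (0.55, SE 0.05, limma adjusted p = 0.0029). miR-7044-5p differed by 0.14 between the drugs (SE 0.02, limma adjusted p = 0.072), a small change against the 1.20 of miR-144-3p. miR-15a-5p differed by 0.42 (SE 0.10, limma adjusted p = 0.18). For miR-451a they were miR-486a-5p (r = 0.97), miR-93-5p (r = 0.97) and miR-16-5p (r = 0.94). For miR-486a-5p they were miR-93-5p (r = 0.99), miR-451a (r = 0.97) and miR-16-5p (r = 0.95). miR-451a and miR-486a-5p thus share miR-93-5p and miR-16-5p among their nearest 3, and miR-144-3p has neither there. The cut at 3 matters: miR-144-3p had an r of 0.83 with miR-451a, close to the 0.85 of miR-15a-5p.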

How the data were processed

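Per the labels' protocols, 3.1 µl of RNA from each plasma pool was labelled with Cy3; per the submitters' processing notes, spots were extracted with Agilent Feature Extraction 11.5.1.1. The deposited scanner files hold spot intensity, background-subtracted but not scaled between arrays per the file headers. The authors' deposited table holds log2 values; the steps behind them are not stated.

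Processed signals were averaged over the kept spots of each probe (outlier flags removed), scaled to the 75th percentile of the 454 probes found on all arrays, averaged over probes, floored at 21.1 (log2 4.40) and put on the log2 scale. A miRNA was tested if all arrays of any 1 group detected it, which left 294. Some of these, such as miR-1198-5p and miR-146b-5p, stood at the floor on every array and could not pass or separate the groups. They are counted in the shares and medians of all miRNAs, and they lower those shares. limma 3.58.1 (R 4.3.3; lmFit, eBayes, 2-sided, adjusted p under 0.05) pooled the spread over the 3 groups (5 residual and 0.605 prior degrees of freedom). The steps were tested on simulated data. Ratios were compared by exact permutation. Hairpins were folded with RNAfold 2.7.2.

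Named were the members, a red cell list, marker lists, and per member the 3 tested miRNAs most correlated with it. Members and lists were chosen with earlier results of these data known. Alternatives covered scaling, signal, background, probes, spots, floor, filter, design, variance, the deposited log2 table and each array left out in turn. The normexp setting used median spot signals and added an offset of 50 to each corrected spot. The ratio of miR-144-3p to miR-486a-5p was added after seeing the data. All arrays lie on 1 slide. The labels call pools biological replicates. The number of arrays limits the precision.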

Additional observations from a re-analysis of the deposited data

Results flagged for a closer look

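The drugs' differences from the same 2 control pools differ for miR-144-3p: the difference between imatinib and doxorubicin was 1.20 on the log2 scale (limma adjusted p = 0.00090), with all 3 imatinib pools above both controls and all 3 doxorubicin pools below them. With normexp background correction the doxorubicin and control pools overlapped (-0.17). The adjusted p ran from 0.00035 to 0.13 over its alternatives.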

How the results depend on the processing

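For miR-144-3p after imatinib (0.82) the call ended with the percentile over all probes (0.82, limma adjusted p = 0.41), no scaling (0.70, adjusted p = 1), median scaling (0.74), the reference pair miR-23a-3p and miR-24-3p (1.02), Agilent's signal per miRNA (0.77), normexp (0.61), a floor 4 times lower (0.82), no filter (0.82), only the compared groups (0.82) and the authors' table (0.79). Between the drugs its call ended with no scaling alone (1.51). miR-451a came to 0 in each comparison with quantile normalization and in the authors' table (for quantile normalization by construction), and it passed between the drugs with normexp (0.88). The cause of the other changes was not tested.

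The count of all miRNAs past the threshold for IMB minus CTRL (3) was 0 unscaled, with no filter, with the reference pair or with the all-probe percentile, and 1 with median scaling, Agilent's signal, normexp, the lower floor or the authors' table. For DOX minus CTRL (1) it was 2 with the all-probe percentile, Agilent's signal, the lower floor or the authors' table, and 0 with no filter, only the compared groups or the replicate block. For IMB minus DOX (3) it was 5 with Agilent's signal, normexp or the lower floor. Leaving out each pool gave 0 to 12, 0 to 2 and 3 to 20, the highest for both imatinib comparisons without IMB pool 1.

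Leaving out each pool, IMB minus CTRL ran from 0.70 to 0.93 for miR-144-3p, -0.0051 to 0.74 for miR-451a and -0.040 to 0.75 for miR-486a-5p, both lowest without CTRL pool 2. DOX minus CTRL ran from -0.50 to -0.27 for miR-144-3p, -0.84 to -0.096 for miR-451a and -0.999 to -0.21 for miR-486a-5p.

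Some ratio differences changed sign, and not only those near 0. For DOX minus CTRL miR-144-3p over miR-451a became -0.41 with quantile normalization and -0.35 in the authors' table (-0.17 to 0.34 leaving out each pool). For IMB minus DOX the same ratio went from 0.36 to -0.10 with normexp. miR-451a did not differ between groups with quantile normalization or in the authors' table, so ratio differences there are those of the other member alone. miR-486a-5p over miR-451a for IMB minus CTRL became 0.33 with quantile normalization, 0.0013 with the brightest probe and 0.20 in the authors' table (-0.10 to 0.11 leaving out each pool); leaving out each pool gave -0.25 to 0.0017 after doxorubicin and -0.014 to 0.25 between the drugs. miR-144-3p over miR-486a-5p became -0.13 with normexp for IMB minus DOX (-0.042 to 0.50 leaving out each pool), and ran from -0.062 to 0.50 for DOX minus CTRL.

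Whether the replicate numbers pair the pools cannot be settled from so few arrays. Of 7 same-numbered pairs, 2 had correlated deviations over 0.1 (r -0.24 to 0.40). Of 8 arrays, 3 correlated best with their own number. With the replicate block miR-144-3p kept its calls (0.81 and 1.20), and the counts were 2, 0 and 4. Within the 2 rows of the slide, 18 of 18 member differences kept their sign. They come from the same arrays as the reported differences, several set 1 pool against 1, and they are not independent of each other.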

Other observations

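Agilent's summed signal per miRNA carries a factor that differs between arrays. The effective feature size in the file headers was 0.6 on 6 arrays, 0.784 for CTRL pool 2 and 0.768 for IMB pool 2. For miR-451a the summed signal over the sum of its 2 probe means was 0.212 on those 6 arrays, 0.277 for CTRL pool 2 and 0.271 for IMB pool 2. Unscaled summed signals of any member are therefore raised in those 2 pools, and they were used here only after scaling.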
